A study of Mus musculus with 3 samples.

Results

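The genes described here encode the extracellular matrix of collagens, laminins and other basement membrane components, and the integrins and dystroglycan that bind it at the cell surface. They were chosen by name, as probe sets whose single gene symbol marks a collagen or laminin chain, an integrin alpha or beta chain, fibronectin, a nidogen, perlecan (Hspg2), agrin, dystroglycan or a fibrillin. The rule found 91 probe sets for 86 genes, out of 22081 probe sets and 20751 genes tested. Of the 86 genes, 60 encode matrix proteins, 25 encode integrins and 1 encodes dystroglycan. Col21a1, Fbn1 and Itga10 had no probe set of their own and were not analysed here. The members were chosen by name and not by their values.

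A basement membrane is a thin sheet of matrix in which a laminin network and a type IV collagen network are joined by nidogens and proteoglycans. Integrins are receptors made of 1 alpha and 1 beta chain that link such matrix to the actin cytoskeleton, and dystroglycan is a second kind of laminin receptor. In the embryonic forebrain, basement membranes lie under the meninges and around vessels, and radial glia hold on to the pial sheet with their end feet. Fibrillar collagens are mostly products of meningeal, perivascular and other connective tissue cells.

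The samples are 3 biological replicate cultures of medial ganglionic eminence (MGE) cells from wild-type CD-1 mouse embryos of embryonic day 13, labelled as purified interneurons, and they form 1 group with no comparison group. Cells were plated at 59000 per square centimetre on slides coated with 2% laminin and 1% poly-D-lysine, in medium with FGF2 at 40 ng/ml, B27 and glutamine. AraC, a nucleoside analogue that kills cells making DNA, was given at 1 µM for 24 h from day 5 and then washed out, and RNA was taken 2 days later. Each culture was read on 1 one-colour array, and each value is a log2 signal of 1 probe set.

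All 10 measured marker genes of MGE neurons were above background, and so were 6 of 7 astrocyte markers, 5 of 5 oligodendrocyte precursor markers and 8 of 8 markers of radial glia and dividing cells. Of the markers of cells that build or line vessels and meninges, 7 of 14 meningeal, fibroblast and mural genes and 7 of 12 endothelial genes were above background. So were 7 of 12 microglial and myeloid genes. These shares lie below the 63.4% of all genes tested that were above background. With the margin of 1 log2 unit explained below, 3, 1 and 1 genes of these lists passed, beside 47.6% of all genes. Among the genes not above background were Dcn, Lum and Ogn, which mark fibroblasts, and Ptprc, which marks blood-derived cells. Of the meningeal, fibroblast and mural genes, Acta2 (mean 9.39), Cspg4 (8.09) and Zic1 (9.59) passed with the margin. Pdgfrb, Rgs5, Twist1 and Foxc1 were above background only. The endothelial and myeloid genes with the margin were Slco1c1 (9.09) and Cd68 (8.33). The mean log2 signal over each list ranged over the 3 cultures from 6.63 to 6.81 for meningeal, fibroblast and mural genes, from 6.48 to 6.66 for endothelial genes and from 6.43 to 6.56 for myeloid genes. Pearson's r across all probe sets was between 0.983 and 0.991 for the pairs of cultures, which is a description across genes. Each array measured a whole culture, so fewer cells of a type and less RNA per cell cannot be told apart, nor can the cells that gave a signal.

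With no comparison group, the design allows the question which of these genes gave signal above background. The background line was 6.26 log2 units, the 95th percentile of 1440 probe sets for odour, pheromone and bitter taste receptors, and a gene passed when limma placed the mean of 3 cultures above it (1-sided, Benjamini-Hochberg adjusted p under 0.05 over all probe sets tested). A second, stricter count asked that the same test place the mean above 7.26, which is the line with a margin of 1 log2 unit. A mean over 7.26 was not enough by itself. Of all genes tested, 63.4% passed the line and 47.6% passed with the margin. Signal levels of different genes are not compared, since probe sets bind with different strength.

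The family as a whole was near the share of all genes at the lenient line and below it at the strict one. Of the 86 genes, 59 (68.6%) were above background and 20 (23.3%) were with the margin, beside 63.4% and 47.6% of all genes. Matrix genes and integrins gave like shares: 42 of 60 matrix genes (70.0%) and 16 of 25 integrins (64.0%) were above the line, and 14 (23.3%) and 5 (20.0%) were with the margin. The difference between matrix genes and integrins was not tested. The collagens held most of the genes that passed the line without the margin. Among collagens 28 of 44 (63.6%) passed and 4 (9.09%) did with the margin, whereas among the other matrix genes 14 of 16 (87.5%) passed and 10 (62.5%) did with the margin.

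**Figure D1:**
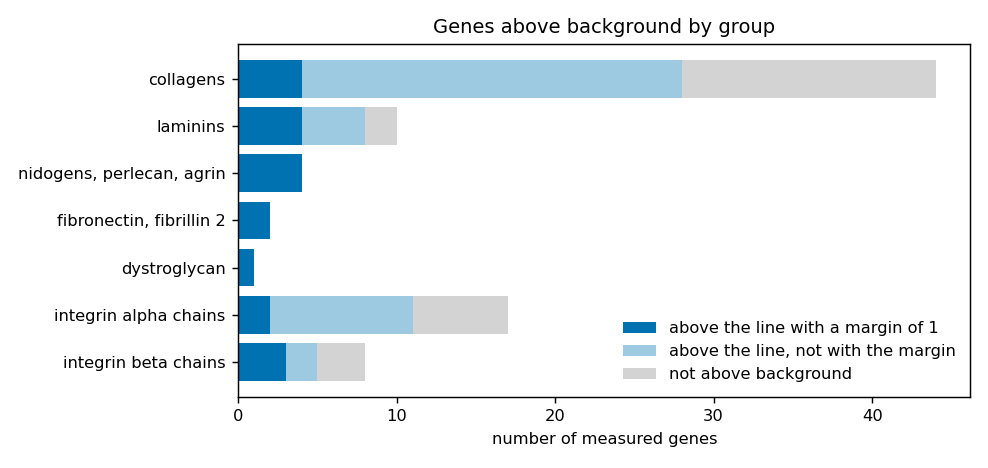
Number of measured genes (horizontal axis) in each group that were above the background line with a margin of 1 log2 unit, above the line only, or not above background. Of 44 collagens 4 reached the margin, whereas all 4 nidogen and proteoglycan genes did.

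The linker and proteoglycan genes of basement membranes were all above background with the margin. Agrn encodes agrin, a heparan sulphate proteoglycan that binds laminin and dystroglycan and organizes synapses at the neuromuscular junction. Its signal was 10.34, 10.35 and 10.23 in cultures 1, 2 and 3 (10.31 ± 0.06, SD, n = 3), and the 3 cultures were nearly equal. Hspg2, the proteoglycan perlecan, gave 8.20, 8.26 and 7.81 (8.09 ± 0.24). Nid1 and Nid2 encode the nidogens, which tie laminin to type IV collagen. Nid1 gave 8.11, 8.11 and 7.68 (7.97 ± 0.25), and Nid2 gave 7.68, 7.94 and 7.59 (7.74 ± 0.18). In all 4 genes culture 3 was the lowest, and every culture was above 7.26. Their adjusted p against the line with the margin was 4.36e-06 for Agrn, 0.00174 for Hspg2, 0.00188 for Nid1 and 0.00616 for Nid2.

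Laminins are trimers of an alpha, a beta and a gamma chain, and a chain for each place was above background. Lamc1, the gamma chain shared by most laminins, gave 9.60, 9.40 and 8.94 (9.31 ± 0.34), the largest SD among matrix genes above background. Culture 3 was the lowest, and all 3 cultures were well over the line with the margin (adjusted p = 0.000173). Lamc3, a gamma chain known from retina and other tissues, was not above background (6.14 ± 0.10). Of the beta chains, Lamb2 gave 8.61, 8.17 and 8.21 (8.33 ± 0.24), with culture 1 the highest, and Lamb1 gave 7.07, 7.31 and 7.07 (7.15 ± 0.14). Lamb3, a chain of the epithelial laminin of skin, was not above background (6.23 ± 0.13, adjusted p = 0.978).

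All 5 laminin alpha chains passed the line, and Lama4 and Lama5 passed with the margin. Lama4, an alpha chain of vessel walls, gave 7.76, 8.00 and 7.46 (7.74 ± 0.27), and Lama5, an alpha chain of many mature basement membranes, gave 7.72, 7.82 and 7.57 (7.70 ± 0.13). Lama1, the alpha chain of early embryonic and pial basement membranes, gave 7.61, 7.65 and 7.29 (7.52 ± 0.20) and lay at the edge of the stricter test (adjusted p = 0.0515). In these 3 genes culture 3 was again the lowest. Lama2, the alpha chain of muscle and of brain vessels, was close to the line in every culture, at 6.47, 6.66 and 6.48 (6.54 ± 0.11, adjusted p = 0.0108), and without culture 2 it did not pass (0.0521). Lama3, the epithelial alpha chain, gave a mean of 6.83 ± 0.10 and passed.

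Counted as assemblies, 10 of 13 laminin trimers with every chain measured had every chain above background, and 8 of 13 did without culture 2, when Lama2 did not pass. With the margin 2 did, those of Lamb2 and Lamc1 with either Lama4 or Lama5. The trimers share chains, so these counts are not independent of each other.

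A pair of further matrix glycoproteins passed with the margin. Fn1 encodes fibronectin, which integrins bind through an Arg-Gly-Asp (RGD) site. Its signal was 9.35, 9.24 and 8.83 (9.14 ± 0.27, adjusted p = 0.000127 with the margin), lowest in culture 3. Fbn2, the fibrillin of developing microfibrils, gave 7.56, 8.12 and 7.67 (7.79 ± 0.30), with culture 2 the highest.

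Type IV collagen, the collagen of basement membranes, was above background for 4 of its 6 chains and for none with the margin. Col4a1 gave 7.29, 7.50 and 7.28 (7.36 ± 0.13) and its neighbour Col4a2 gave 6.99, 7.09 and 6.93 (7.00 ± 0.08). These 2 chains form the trimer present in nearly all basement membranes, and their genes lie next to each other, as do the genes of the other pairs. Both had culture 2 as the highest. Col4a5 (6.94 ± 0.09) and Col4a6 (6.48 ± 0.14) passed too, whereas Col4a3 (6.25 ± 0.08) and Col4a4 (6.12 ± 0.10), chains of the mature kidney filter, did not. The call of Col4a6 (adjusted p = 0.0333) was lost without culture 1 (0.0881) and without culture 3 (0.142). Col18a1, the multiplexin whose end fragment is endostatin, gave 6.59, 6.31 and 6.49 (6.47 ± 0.14). It passed narrowly (adjusted p = 0.0399) and did not pass without culture 1 (0.0880) or culture 3 (0.145). Col15a1, the other multiplexin, was not above background (6.05 ± 0.13).

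Fibrillar collagens, the rope-forming chains of connective tissue, passed the line in 9 of 11 cases, mostly by less than 1 log2 unit. Col1a1 gave 7.33, 6.96 and 7.36 (7.22 ± 0.22), lowest in culture 2. Its partner chain Col1a2, which joins it in type I collagen, was not above background at 6.29, 6.08 and 6.47 (6.28 ± 0.20, adjusted p = 0.616). Col3a1, of skin and vessel walls, gave 6.52, 6.41 and 6.53 (6.49 ± 0.06), and without culture 3 it did not pass (adjusted p = 0.0683). Col11a1, a chain of cartilage fibrils, gave 6.78, 6.62 and 6.57 (6.65 ± 0.11), so all 3 cultures lay just over the line. Col11a2 (6.51 ± 0.06) was lost without culture 2 (0.0766) and without culture 3 (0.0527), and Col24a1 (6.38 ± 0.02), which did not pass, did without culture 1 (0.0496). Col27a1 was the 1 fibrillar chain with the margin, at 7.77 ± 0.14. The remaining members, Col2a1 (7.08 ± 0.11), Col5a1 (7.39 ± 0.10), Col5a2 (7.05 ± 0.08) and Col5a3 (6.90 ± 0.15), passed the line only.

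**Figure D2:**
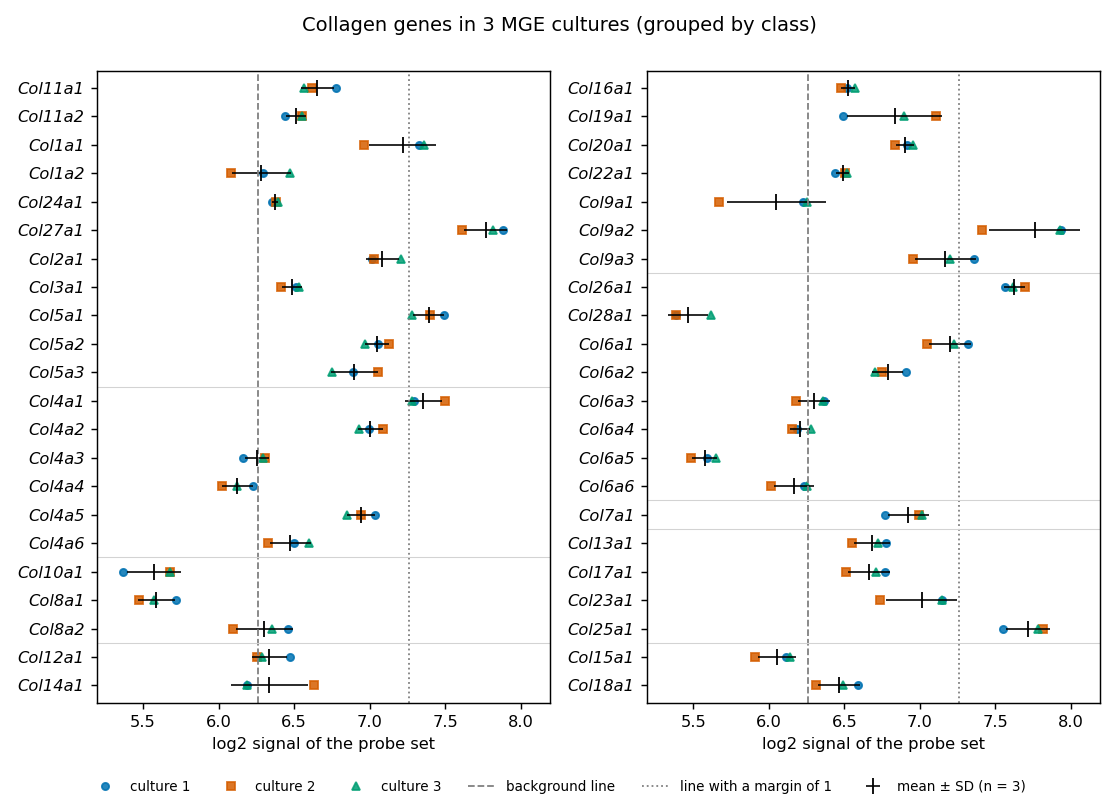
Log2 signal (horizontal axis) of each collagen gene in cultures 1, 2 and 3, with the mean ± SD (n = 3), the background line at 6.26 (dashed) and the line with a margin of 1 at 7.26 (dotted), grouped by class. Most chains lie between or below the lines, and 6 chains lie beyond the dotted line in every culture, namely Col25a1, Col26a1, Col27a1 and Col9a2, which passed with the margin, and Col4a1 and Col5a1, which did not.

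Several other collagen classes were split between chains of the same trimer. Type IX collagen coats cartilage fibrils and is built from 3 chains. Col9a2 (7.76 ± 0.30, with the margin) and Col9a3 (7.17 ± 0.20) passed, whereas Col9a1 did not, at 6.23, 5.67 and 6.25 (6.05 ± 0.33). All 3 chains were lowest in culture 2. For type VI collagen, which forms beaded filaments, Col6a1 (7.20 ± 0.14) and Col6a2 (6.79 ± 0.11) passed and Col6a3 (6.30 ± 0.11), Col6a4, Col6a5 and Col6a6 did not. Col6a1 has another probe set at 5.57 ± 0.19, and with both averaged it did not pass (adjusted p = 0.125).

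The fibril-associated Col19a1, known in mouse from a subset of cortical interneurons, gave 6.49, 7.11 and 6.90 (6.83 ± 0.31), with culture 1 the lowest. Its call was lost without culture 2 (adjusted p = 0.0984) or culture 3 (0.0710). Col22a1 (6.49 ± 0.04), a chain of tissue junctions, was lost without the same cultures (0.0710 and 0.0558). Col16a1 (6.52 ± 0.05) and Col20a1 (6.90 ± 0.06) passed, and Col12a1 (6.34 ± 0.12) and Col14a1 (6.33 ± 0.25) did not.

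The 4 transmembrane collagens were all above background. Col25a1 encodes a collagen of neurons whose shed part was found in amyloid plaques and which motor axons need in mouse. Its signal was 7.55, 7.82 and 7.78 (7.72 ± 0.15, adjusted p = 0.00424 with the margin), and culture 1 was the lowest. Col13a1 (6.68 ± 0.12), Col17a1 (6.66 ± 0.14) and Col23a1 (7.01 ± 0.24) passed the line only. Col26a1 passed with the margin (7.62 ± 0.07) and Col7a1, of the anchoring fibrils of skin, passed the line (6.92 ± 0.13). The short-chain collagens Col8a1, Col8a2 and Col10a1, of vessel and eye membranes and of cartilage, did not pass, and neither did Col28a1.

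Dag1 encodes dystroglycan, whose sugar chains bind laminin, agrin and perlecan outside the cell. Its signal was 11.18, 11.11 and 11.02 (11.10 ± 0.08, adjusted p = 3.96e-06 with the margin), and the 3 cultures spanned little. A list chosen for role held 19 measured genes that build the sugars or the complex of dystroglycan. Of these, 18 were above background and 14 were with the margin, beside 63.4% and 47.6% of all genes. The list was not tested. The genes that passed included Dtna (10.48 ± 0.23) and Dtnb (9.78 ± 0.06), the dystrobrevins of the complex under the membrane. Large2, one of the enzymes that extend the laminin-binding sugar, was not above background (5.97 ± 0.09).

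Of the 25 integrins, 5 passed with the margin, 11 more passed the line only and 9 were not above background. Itgb1, the beta chain shared by most matrix integrins, gave 9.93, 9.76 and 9.69 (9.79 ± 0.12, adjusted p = 8.78e-06 with the margin). Among its laminin-binding partners, Itga6 gave 10.30, 9.79 and 9.96 (10.02 ± 0.26), and every culture was far over the line with the margin. Itga3 gave 7.19, 7.49 and 7.33 (7.34 ± 0.15) and Itga7 gave 7.79, 7.14 and 7.40 (7.44 ± 0.33). These 2 chains passed the line only, and Itga7 was highest in culture 1 whereas Itga3 was lowest there.

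Of the collagen-binding alpha chains, Itga1 and Itga2 passed the line and Itga11 (6.31 ± 0.07) did not. Itga1 gave 7.15, 7.17 and 6.71 (7.01 ± 0.26), lowest in culture 3. Itga2 gave 8.42, 7.13 and 7.75 (7.77 ± 0.64), the largest SD among the members, and it alone spanned more than 1 log2 unit. Over all genes above background, 1.32% spanned as much. With that spread Itga2 did not pass with the margin (adjusted p = 0.133), although culture 1 was more than 2 log2 units over the line.

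The RGD-binding alpha chains were all above background. Itgav, the alpha chain shared by the receptors of vitronectin and of latent TGF-beta, gave 9.86, 9.64 and 9.47 (9.66 ± 0.20, adjusted p = 2.42e-05 with the margin). A second probe set of Itgav was below the line in every culture (5.02 ± 0.09), so its call rests on 1 of 2 probe sets. Itga5, the classic fibronectin receptor chain, gave 7.38, 7.09 and 7.20 (7.22 ± 0.15). Itga8, which binds nephronectin and other RGD ligands, gave 7.02, 7.10 and 6.88 (7.00 ± 0.11). Both passed the line only, as did the platelet chain Itga2b (6.89 ± 0.04). Itga9 (6.75 ± 0.05) passed too, as did Itga4 (6.69 ± 0.20), which was lost without culture 2 (adjusted p = 0.0629) or culture 3 (0.0561).

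The beta chains that pair with Itgav differed in their calls. Itgb8, which in mouse brain is needed by neural progenitors and glia to activate TGF-beta for vessels, gave 10.95, 10.49 and 10.53 (10.66 ± 0.26, adjusted p = 1.57e-05 with the margin). Itgb5, a vitronectin receptor chain, gave 10.36, 9.82 and 9.75 (9.98 ± 0.34, adjusted p = 6.54e-05). In both genes culture 1 was the highest and the other cultures were close together. Itgb3, the beta chain of platelets and of osteoclasts, gave 6.61, 6.48 and 6.56 (6.55 ± 0.06) and passed the line only. Itgb6, an epithelial chain, was below the line in all 3 cultures (5.25 ± 0.07). Itgb4, the chain of epithelial hemidesmosomes, gave 6.50 ± 0.17 and was lost without culture 1 (adjusted p = 0.106) or culture 3 (0.155).

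Itgav, Itgb5 and Itgb8 passed with the margin, whereas Itgb6, a chain of the same receptor family, was not above background. The sequences before the RefSeq start sites (GRCm38.p6) of these genes are therefore shown. Each is the 250 bases before a start, 5′ to 3′ on the gene's strand, and capitals mark 3 short promoter motifs on either strand. The first is the GC box, spelled GGGCGG, to which Sp family factors bind. The second is the box spelled TATAAA, which helps to place the start of transcription. The third is the box spelled CCAAT, to which NF-Y binds, and no matches overlapped in the windows shown.
Itgav, chr2:83724147-83724396, plus strand: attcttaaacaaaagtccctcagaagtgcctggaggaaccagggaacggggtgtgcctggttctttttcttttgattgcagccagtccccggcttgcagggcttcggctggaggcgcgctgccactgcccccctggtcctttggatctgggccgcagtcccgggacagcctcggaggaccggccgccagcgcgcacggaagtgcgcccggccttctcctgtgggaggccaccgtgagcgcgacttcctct
Itgb5, chr16:33829415-33829664, plus strand: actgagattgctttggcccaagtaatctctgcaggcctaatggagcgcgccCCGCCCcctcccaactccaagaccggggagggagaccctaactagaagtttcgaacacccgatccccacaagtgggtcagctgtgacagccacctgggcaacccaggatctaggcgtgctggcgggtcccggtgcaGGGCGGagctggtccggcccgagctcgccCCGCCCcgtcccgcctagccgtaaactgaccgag
Itgb8, chr12:119238277-119238526, minus strand: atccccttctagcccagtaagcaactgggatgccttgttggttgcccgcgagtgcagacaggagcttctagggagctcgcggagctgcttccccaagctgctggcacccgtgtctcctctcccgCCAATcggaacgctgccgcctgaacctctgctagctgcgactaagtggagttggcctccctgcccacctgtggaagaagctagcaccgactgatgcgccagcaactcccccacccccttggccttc
Itgb6, chr2:60722604-60722853, minus strand: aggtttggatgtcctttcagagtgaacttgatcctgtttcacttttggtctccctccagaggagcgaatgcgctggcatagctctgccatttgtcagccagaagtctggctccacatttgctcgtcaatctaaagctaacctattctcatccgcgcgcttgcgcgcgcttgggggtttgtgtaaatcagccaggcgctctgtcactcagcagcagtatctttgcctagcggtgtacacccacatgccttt
The window of Itgb5 held 3 GC boxes, that of Itgb8 held 1 match to CCAAT, and those of Itgav and Itgb6 held none of the 3 motifs. Their GC content was 64.4%, 65.2%, 62.4% and 52.0% for Itgav, Itgb5, Itgb8 and Itgb6, and the numbers of CG dinucleotides were 18, 18, 12 and 11. A second annotated start of Itgb6 had a GC content of 38.0% and 3 CG dinucleotides.

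Promoter windows were found for 61 of the 86 members (69 windows, since some genes have more than 1 start). A GC box was present in 12 of 15 windows (80.0%) of members above background with the margin, in 18 of 32 (56.2%) of those above the line only and in 7 of 22 (31.8%) of those not above background. Over all genes the shares were 59.9% for genes with the margin and 22.3% for genes not above background, so the same order held beyond these families. Across all 21263 windows of protein-coding genes, 42.6% held a GC box. Matches to TATAAA and CCAAT were present in 11.6% and 35.4% of them. The former was found in 5 of 48 windows of matrix genes and in 0 of 19 windows of integrins. These are matches of letters in a fixed window and are given as a description, with no test.

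Leukocyte integrins were at background. Itgam, the alpha chain of microglia and other myeloid cells, gave 5.85, 5.59 and 5.83 (5.76 ± 0.15), and its beta chain Itgb2 gave 5.89, 5.83 and 5.92 (5.88 ± 0.04). No culture reached the line for either gene. Itgad, Itgae, Itgal and Itgax did not pass either, nor did Itgb7 (6.33 ± 0.17, adjusted p = 0.356), the beta chain of gut-homing lymphocytes. In these same cultures 7 of 12 microglial and myeloid markers were above background, beside 63.4% of all genes. They were Cx3cr1, Aif1, P2ry12, C1qa, C1qb, Cd68 and Spi1, and only Cd68 passed with the margin. Csf1r, Tmem119, Fcrls, Tyrobp and Ptprc were not above background.

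**Figure D3:**
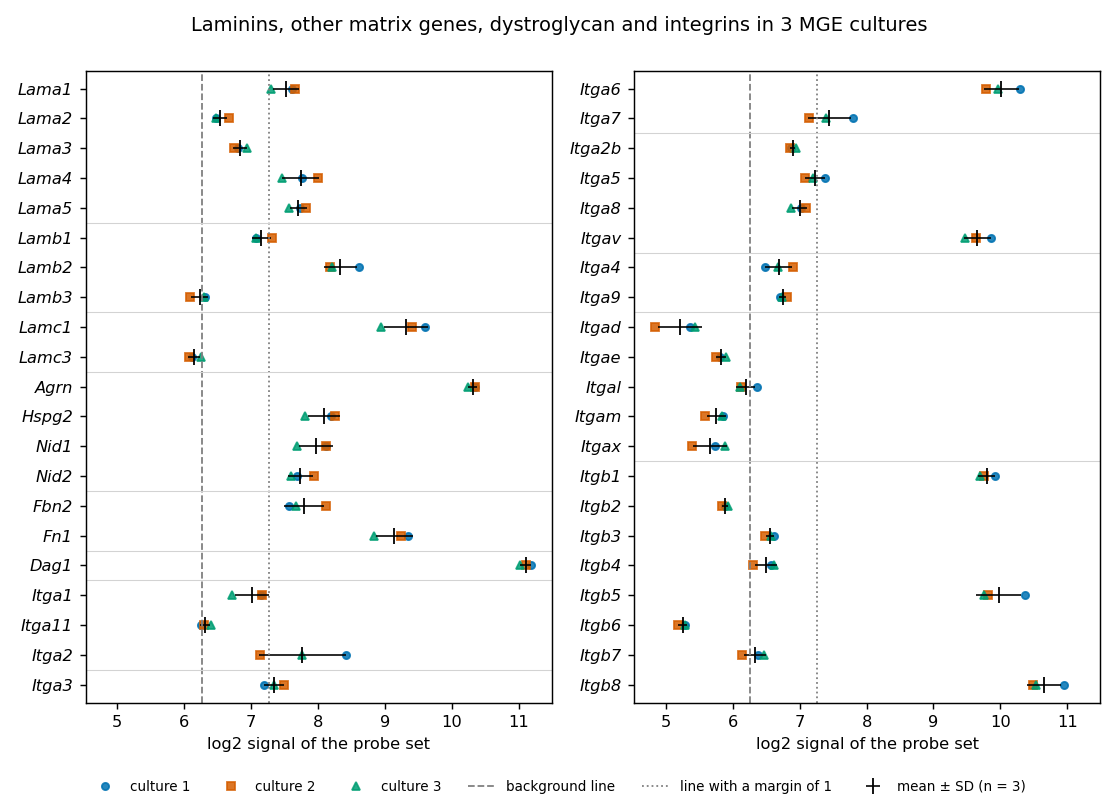
Log2 signal (horizontal axis) of laminins, other matrix genes, dystroglycan and integrins in cultures 1, 2 and 3, with the mean ± SD (n = 3), the background line at 6.26 (dashed) and the line with a margin of 1 at 7.26 (dotted). Agrn, Dag1, Itga6, Itgav, Itgb1, Itgb5 and Itgb8 lie far to the right of both lines, and the leukocyte chains Itgad, Itgae, Itgam, Itgax and Itgb2 lie left of the dashed line in every culture.

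Counted as receptors, 15 of 23 known integrin pairs with both chains measured had both above background, and 4 had both with the margin. These 4 were Itga6 with Itgb1, and Itgav with each of Itgb1, Itgb5 and Itgb8, where the pairs with Itgav rest on the higher of its probe sets. No pair with Itgb2, Itgb6 or Itgb7 had both chains above background. Pairs share chains, and a shared call does not show that both chains were in the same cell.

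**Figure D4:**
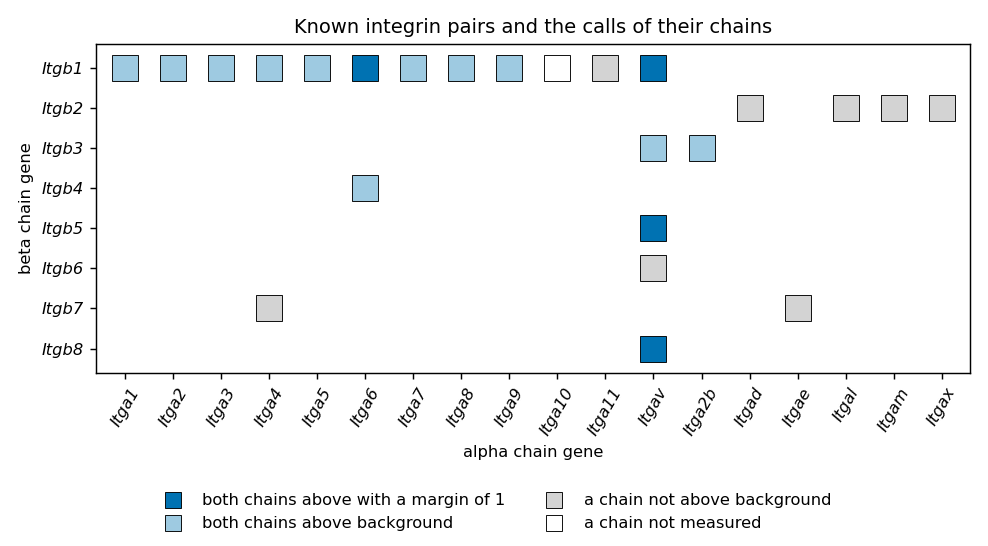
Each square is a known integrin pair, placed by its alpha chain gene (horizontal axis) and beta chain gene (vertical axis), and its colour gives the calls of both chains. The 4 dark squares, with both chains above the line with a margin of 1, lie in the columns of Itga6 and Itgav.

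The machinery on both sides of the receptors was also measured, in lists chosen for role. For comparison, 63.4% of all genes were above background and 47.6% were with the margin. Of 28 measured genes of integrin adhesion sites, 25 were above background (22 with the margin), among them Rsu1 (11.87 ± 0.06), a partner of the adaptor PINCH, and Rap1b (11.06 ± 0.05), a GTPase that activates integrins. Fermt1 (4.73 ± 0.07) and Fermt3 (6.41 ± 0.16), the kindlins of epithelia and of blood cells, and Apbb1ip (5.08 ± 0.22), a Rap1 effector of blood cells, were not above background. Of 26 genes that fold, crosslink or trim collagens, 23 were (15 with the margin), among them Ppib (11.93 ± 0.08) and P4hb (10.13 ± 0.08), which act in the folding of collagen and other proteins. Lox (5.51 ± 0.27), an enzyme that crosslinks collagen, P4ha2 (6.60 ± 0.34) and Tll2 (6.23 ± 0.11) were not.

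Other integrin ligands and matricellular genes were above background in 30 of 36 cases (19 with the margin). Sparcl1 gave 11.80, 10.89 and 11.73 (11.47 ± 0.50) and Mfge8 gave 11.77, 10.01 and 11.31 (11.03 ± 0.91). Both are secreted proteins, Mfge8 being an RGD ligand of the Itgav integrins, and both were lowest in culture 2. The means of the astrocyte, oligodendrocyte precursor, radial glia and myeloid marker lists were lowest there too, and their part was not tested. Vtn (6.30 ± 0.25), Thbs4 (6.40 ± 0.09), Comp (6.15 ± 0.23) and Postn (6.84 ± 0.75) were not above background. With 63.4% of all genes above the line, these counts describe the lists and give no test of them.

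Members far over the line spread more between the 3 cultures than all genes of that class. The median SD of the 20 members above background with the margin was 0.24 log2 units, beside 0.11 over all 9880 such genes. Over all members above background it was 0.14, beside 0.12 over all genes above background. For laminins, nidogens and proteoglycans with the margin, 7 of 8 genes were lowest in culture 3, and Lamb2 was the exception. Culture 3 was the lowest for 32.9% of all genes with the margin. Among matrix genes it was the lowest for 8 of 14 with the margin and for 17 of 42 above background (40.5%). Over all genes above background the share was 31.4%. The endothelial markers (mean log2 signal 6.66, 6.56 and 6.48) and the meningeal, fibroblast and mural markers (6.81, 6.79 and 6.63) were lowest in culture 3 as well. The genes with the largest SD in these lists weigh heavily on the means. They were Slco1c1 (9.88, 8.84 and 8.54) and Acta2 (9.93, 9.87 and 8.38). The median deviations from each gene's own mean were also lowest in culture 3, at -0.09 and -0.03. The part of these cells in the result was not tested.

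The integrins with the margin had another order of cultures. All 5 integrins with the margin (Itga6, Itgav, Itgb1, Itgb5 and Itgb8) were highest in culture 1, where 31.7% of all genes with the margin were highest. The median deviation from each gene's own mean was 0.28 in culture 1, -0.16 in culture 2 and -0.12 in culture 3 for these 5 genes, and 0.07, 0.10 and -0.13 for the 14 matrix genes. Over all 16 integrins above background it was 0.14, -0.05 and -0.03, and over the 42 matrix genes 0.03, 0.03 and -0.03. Highest in culture 1 were 9 of these 16 integrins (56.25%), beside 32.4% of all genes above background. Markers of astrocytes (mean log2 signal 8.78, 7.97 and 8.46), of oligodendrocyte precursors (10.89, 10.39 and 10.56) and of radial glia and dividing cells (11.00, 10.59 and 10.74) were also highest in culture 1. So were those of meningeal, fibroblast and mural cells and of endothelial cells, given above, and by a small difference those of myeloid cells (6.560, 6.433 and 6.559). By these means, only the neuronal one of the 7 marker lists was not highest in culture 1, and it was lowest there (10.47, 10.83 and 10.75). By median deviation the endothelial list was highest in culture 2 instead (0.03, 0.05 and -0.09). The part of these cells in the integrin signal was not tested, and with 1 array per culture no difference between cultures can be tested.

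**Figure D5:**
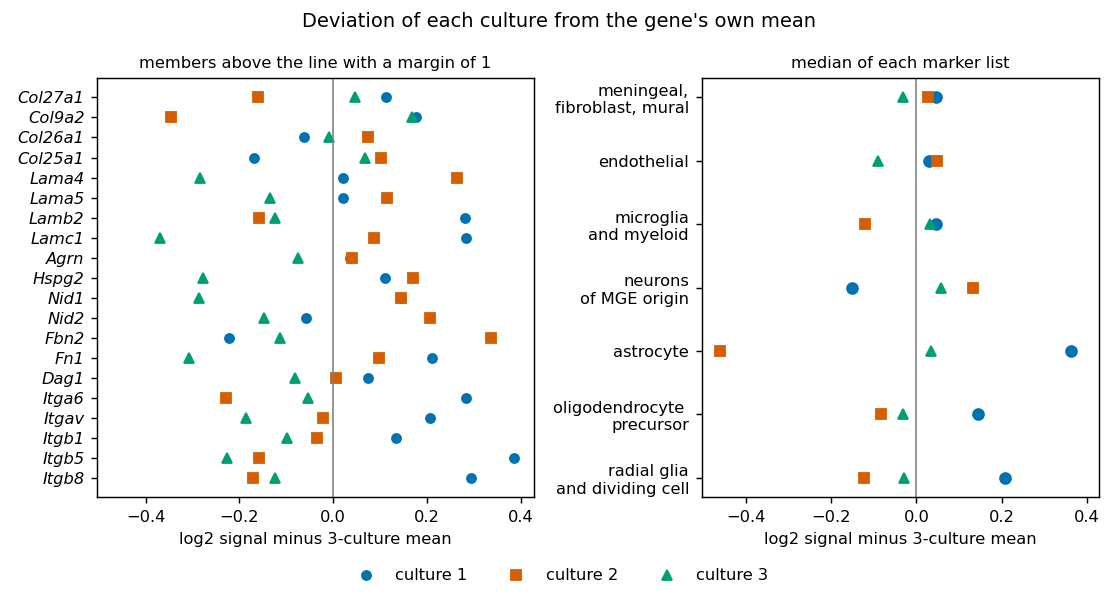
Deviation of each culture from the gene's own 3-culture mean in log2 units (horizontal axis), for the 20 members above background with a margin of 1 (left) and as the median of each marker list (right). The 5 integrins are highest in culture 1, as are the medians of 5 of the 7 marker lists (the neuronal and endothelial lists are not), and most basement membrane genes are lowest in culture 3.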

How the data were processed

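RNA of 3 cultures was measured on 1 array each. The deposited values are log2 signals per probe set, which the authors made with oligo and RMA, per the submitters' processing notes. RMA corrects background, normalizes arrays and summarizes probes, so small differences between cultures may be reduced. The sources used here give no version or filter. Arrays give no read depth, and their number limits the precision.

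Symbols were read from the platform annotation: 23521 of 41345 probe sets carry 1 symbol, 1814 several and 16010 none. All 91 member probe sets matched a RefSeq gene (GRCm38.p6) by identifier, with 0 differing symbols. Another 3 probe sets shared with other genes were not used. For genes with 2 probe sets, 1 above background sufficed, and the one with the higher mean is printed.

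An intercept was fitted with limma 3.58.1 in R 4.3.3 to 22081 probe sets and tested against the threshold, 1-sided (2.13 prior degrees of freedom). In simulated data, of 50 probe sets raised by 0.25, 0.5, 1 and 2 log2 units over the line, 36, 47, 50 and 50 were called in a fit of 22081, and of 7305 below it 7 were. The alternatives number 13. Every member may be named. Values in each culture are given for lead members picked by role, members with the largest SD and some others. From the lists of related genes, the 2 with the highest mean and up to 4 not above background are named. Other genes (the markers, Col27a1, Fbn2 and the like) complete a count. The lists and the lead members were chosen with earlier results of these data known. The cultures are labelled biological replicates.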

Additional observations from a re-analysis of the deposited data

How the results depend on the processing

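The counts followed the background line. At its 99th percentile (7.10) 24 members, 17 matrix genes, 6 integrins, 5 integrin pairs and 3 laminin trimers were above it. With other families as background (119 probe sets, 7.22) the counts were 21, 15, 5, 4 and 3, and with the margin of 1 they were 20, 14, 5, 4 and 2, against 59, 42, 16, 15 and 10 at the 95th percentile. All genes called fell less, to 49.9%, 48.5% and 47.6%. At the 90th percentile (5.82) 75 members were above it. Requiring every culture above the line gave 60 and averaging probe sets gave 58, where Col6a1 was lost (adjusted p = 0.125). An intensity trend, quantile normalization, median centring and a filter on dim probe sets each gave 59.

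Without 1 culture the counts ranged from 51 to 57 members, 36 to 41 matrix genes, 14 to 15 integrins, 13 to 14 pairs and 8 to 10 trimers. The median SD ranged from 0.077 to 0.135 for matrix genes (0.137 with all 3) and from 0.113 to 0.198 for integrins (0.183). Under quantile normalization and median centring every median deviation of these genes kept its sign and shifted by less than the spread of the 3 medians, but small ones changed much in proportion: after median centring they were 0.006, 0.061 and -0.045 in cultures 1, 2 and 3 for matrix genes (0.028, 0.027 and -0.034 as reported) and 0.113, -0.018 and -0.045 for integrins (0.135, -0.051 and -0.034). For genes with the margin, added after seeing the data, they were 0.26, -0.13 and -0.13 for the 5 integrins, all still highest in culture 1, and 0.05, 0.13 and -0.14 for the 14 matrix genes. Of the 8 laminins, nidogens and proteoglycans 8 were then lowest in culture 3. No paired analysis was possible because the series has 1 group. Chains within about 1 log2 unit of the line, most collagens among them, are thus called or not by the choice of line.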

Other observations

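Of the 5 members with 2 probe sets, 3 had probe sets that disagreed. For Itgav 1 gave 9.66 ± 0.20 and the other 5.02 ± 0.09, for Col5a1 they gave 7.39 ± 0.10 and 6.02 ± 0.16, and for Col6a1 7.20 ± 0.14 and 5.57 ± 0.19. Both probe sets of Nid1 were above background (7.97 ± 0.25 and 7.76 ± 0.11), and neither of Col1a2 was (6.28 ± 0.20 and 4.25 ± 0.12).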
